A study of Rattus norvegicus with 9 samples.

Results

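The heat shock proteins and co-chaperones described here are Cryab, Hspb1, Dnajb1, Dnajb4, Bag3, Hsph1, Hspa8, Hsp90aa1, Hspa5 and Sdf2l1. Each was followed through every probe set of an Affymetrix whole-genome rat array that the platform annotation assigns to that gene alone. This rule found 8 of the 10 genes on 10 probe sets, out of 31042 probe sets that were not controls and 14217 genes named alone by a probe set. Hspa8 and Hsp90aa1 were on 3 probe sets that list another symbol as well and were not analysed here. The assignment of probe sets to these genes used no measured value, but the genes were chosen with earlier results of these data known.

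The RNA came from zona glomerulosa cells of the rat adrenal gland, the outer cortical layer that makes aldosterone, after enzymatic and mechanical dispersion. Cells were kept for 2 h at 37 °C in medium with 0.5% bovine serum albumin that was free of fatty acids, and received nothing further (control), 100 nM angiotensin II (Ang II) or 16 mM potassium. The cells of each of 3 independent preparations were split over the 3 groups, so there were 3 arrays per group and 9 in all, and arrays of a preparation are paired. Control tubes had thus been through the same dispersion and incubation as stimulated tubes, and no array of undispersed tissue was among the 9. The strain, sex and age of the rats are not stated in the labels.

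Heat shock proteins bind unfolded stretches of other proteins. Small heat shock proteins such as Cryab and Hspb1 hold unfolding proteins without using ATP. Hsp70 proteins such as Hspa8 refold them in cycles that J-domain co-chaperones (Dnajb1, Dnajb4) start, and that nucleotide exchange factors (Bag3, Hsph1) end. In the cytosol these genes are classic targets of the heat shock factor HSF1, whereas Hspa5 and Sdf2l1 act in the endoplasmic reticulum and belong to the unfolded protein response. In steroid-making cells of the adrenal cortex, chaperones of this kind also take part in protein handling at the mitochondria and the smooth endoplasmic reticulum, where the steroid enzymes reside.

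The letters that heat shock factors are known to recognise were searched in RefSeq promoters of rat assembly GRCr8, as were those of an element of the unfolded protein response, and the stretches are shown because each holds a match to one or the other. A heat shock element is a row of alternating GAA and TTC units with 2 free bases between them. The 2-unit form was searched as GAANNTTC or TTCNNGAA and the 3-unit form as GAANNTTCNNGAA or TTCNNGAANNTTC, on both strands. Every 3-unit match also contains 2-unit matches. The stress element of the endoplasmic reticulum (ER) was searched as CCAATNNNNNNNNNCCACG or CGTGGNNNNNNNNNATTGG, which contains a CCAAT box. Each run gives the 150 bases before the annotated start, 5′ to 3′ on the strand of the gene, with matches to a heat shock element or, in Hspa5, to the ER stress element in capitals.
Bag3: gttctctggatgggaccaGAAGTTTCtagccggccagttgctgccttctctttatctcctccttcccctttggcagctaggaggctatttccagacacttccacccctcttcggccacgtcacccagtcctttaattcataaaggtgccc
Dnajb1: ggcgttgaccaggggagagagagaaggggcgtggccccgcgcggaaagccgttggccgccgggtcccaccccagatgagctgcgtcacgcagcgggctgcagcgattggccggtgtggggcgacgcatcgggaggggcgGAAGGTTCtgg
Hsph1: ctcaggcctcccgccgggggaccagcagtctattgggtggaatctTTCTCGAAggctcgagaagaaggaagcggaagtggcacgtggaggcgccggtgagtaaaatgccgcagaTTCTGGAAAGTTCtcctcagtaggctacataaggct
Hspb1: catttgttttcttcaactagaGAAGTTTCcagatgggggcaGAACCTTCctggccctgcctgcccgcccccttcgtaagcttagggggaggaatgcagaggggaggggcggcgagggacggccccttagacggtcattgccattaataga
Hspa5: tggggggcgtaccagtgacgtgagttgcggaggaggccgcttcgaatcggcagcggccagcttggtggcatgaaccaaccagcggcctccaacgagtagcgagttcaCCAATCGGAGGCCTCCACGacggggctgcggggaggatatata
The Bag3 run is chr1:192533310-192533459 on the plus strand. The Dnajb1 run is chr19:41431142-41431291 on the minus strand. The Hsph1 run is chr12:10427218-10427367 on the plus strand. The Hspb1 run is chr12:26432302-26432451 on the minus strand. The Hspa5 run is chr3:38452866-38453015 on the plus strand. All 5 lie just upstream of the annotated first exon of their gene.

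The promoter table held 7 of the 10 genes, namely Hspb1, Dnajb1, Bag3, Hsph1, Hspa8, Hspa5 and Sdf2l1. Over 300 bases, from 250 before to 50 after the start, a 2-unit heat shock element was present in 5 of these 7 and in 15.9% of all 33469 promoters of that length. Counting the base before the start as -1, its letters began at -132 in Bag3, at -11 and again after the start in Dnajb1, and at -129 and -109 in Hspb1. A 3-unit element was present in Hsph1, where it spanned -36 to -24, and in Hspa8, against 0.798% of all promoters. The ER stress element was present in Hspa5 at -43 to -25, against 0.0657% of all promoters. CCAAT or ATTGG was present in 6 of the 7 and in 37.5% of all promoters, and the core letters TGACG or CGTCA of the cAMP response element in 5 of the 7 and in 21.2%. A match is a description of letters, not of a bound site.

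**Figure D1:**
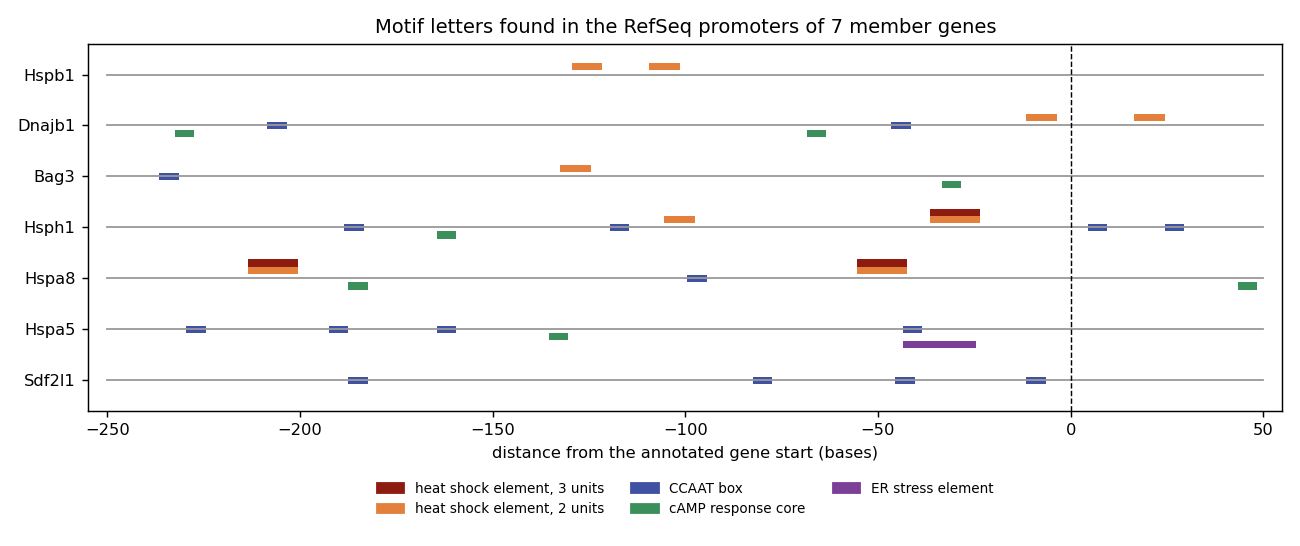
Positions of motif letters in the RefSeq promoters of the 7 genes, as distance from the annotated gene start in bases (250 before to 50 after, dashed line at the start). Bars mark 2-unit and 3-unit heat shock elements, CCAAT boxes, cAMP response core letters and the ER stress element. The 3-unit form lies in Hsph1 and Hspa8, and the ER stress element lies in Hspa5.

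Signals are linear intensities in arbitrary units, comparable between arrays for a given probe set and not between probe sets. The trimmed mean had been set to a common value on each array, but the array medians lay between 128.0 and 143.6 on 8 arrays and at 172.9 on control replicate 2. The 3′ to 5′ signal ratio of actin, a measure of RNA integrity, was 3.12 to 3.46 in control, 2.88 to 3.01 in Ang II and 2.66 to 3.6 in potassium arrays. It was thus higher in every control array than in every Ang II array, and its part in the results was not tested. Of 11 zona glomerulosa markers 10 were measured, none at 0, while Cyp11b2 was not analysed here. Star, Hsd3b1, Cyp11a1, Cyp21a1 and Dab2 were above the 99th percentile of mean signal. Star, Hsd3b1, Cyp11a1 and Cyp21a1 serve steroid synthesis in general, so their levels do not tell the layers of the cortex apart. Agtr1b, Nr5a1, Agtr1a and Kcnk3 were at percentiles 94.6, 92.8, 91.8 and 89.0, and Kcnk9 was at 41.5. Akr1b7 of the zona fasciculata and Hbb of red blood cells were also bright, at percentiles 100.0 and 99.6. Kdr and Tek of endothelium were at 98.5 and 97.4, and Dcn and Col1a2 of capsule fibroblasts at 97.7 and 95.3. Tagln of smooth muscle was at 96.7 and Cyp11b1 of the zona fasciculata at 95.7. All of these were above Agtr1b, Nr5a1, Agtr1a and Kcnk3. The summed signals of the markers of 9 other cell types overlapped between the 3 groups, and none of the measured markers was at 0. Some were dim, with Cidec, Cd79b and Cd163 at percentiles 1.1, 11.3 and 14.0. A sum mostly follows its brightest markers, and single markers were not compared between the groups. For smooth muscle and pericytes, cells known to be rich in Cryab and Hspb1, the sum of 5 markers was 5997 to 8620.1 in control, 6845 to 9422 in Ang II and 6495 to 8578 in potassium arrays. The part of these cells in the results was not tested.

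With Ang II 4 of the 8 genes rose and none fell, and with potassium 1 rose and 1 fell, each gene counted at its brightest probe set. The 4 were Cryab, a small heat shock protein, the J-domain co-chaperones Dnajb1 and Dnajb4, and the Hsp70 co-chaperone Bag3, with folds of 1.21 to 1.45. Among all 18625 tested probe sets, 1.66% were called higher and 0.532% lower with Ang II against control. The median difference of the 8 genes was 0.24 on the log2 scale, beside -0.03 over all tested probe sets. Because the genes were chosen with earlier results of these data known, the counts and medians in this paragraph are descriptions. They are not a test of the genes as a set. At an unadjusted p under 0.05 from limma, 6 of the 8 were higher with Ang II and 0 lower, beside 7.22% and 7.24% of all tested probe sets. With potassium, Bag3 rose and Sdf2l1, a gene of the endoplasmic reticulum, fell, beside 2.78% of all tested probe sets called higher and 2.58% called lower. At an unadjusted p under 0.05, 3 of the 8 were higher and 1 lower, beside 8.77% and 10% of all tested probe sets. The median of the 8 genes with potassium was 0.08, beside -0.02 over all. Ang II against potassium gave 2 genes higher and 1 lower, beside 3.09% and 1.7% of all tested probe sets, and at an unadjusted p under 0.05 it gave 4 higher and 1 lower, beside 8.51% and 7.69%. All differences are on the log2(signal + 16) scale, a call means an adjusted p under 0.05 from limma with Benjamini-Hochberg adjustment over all tested probe sets, and the comparisons with control share the same 3 control arrays.

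**Figure D2:**
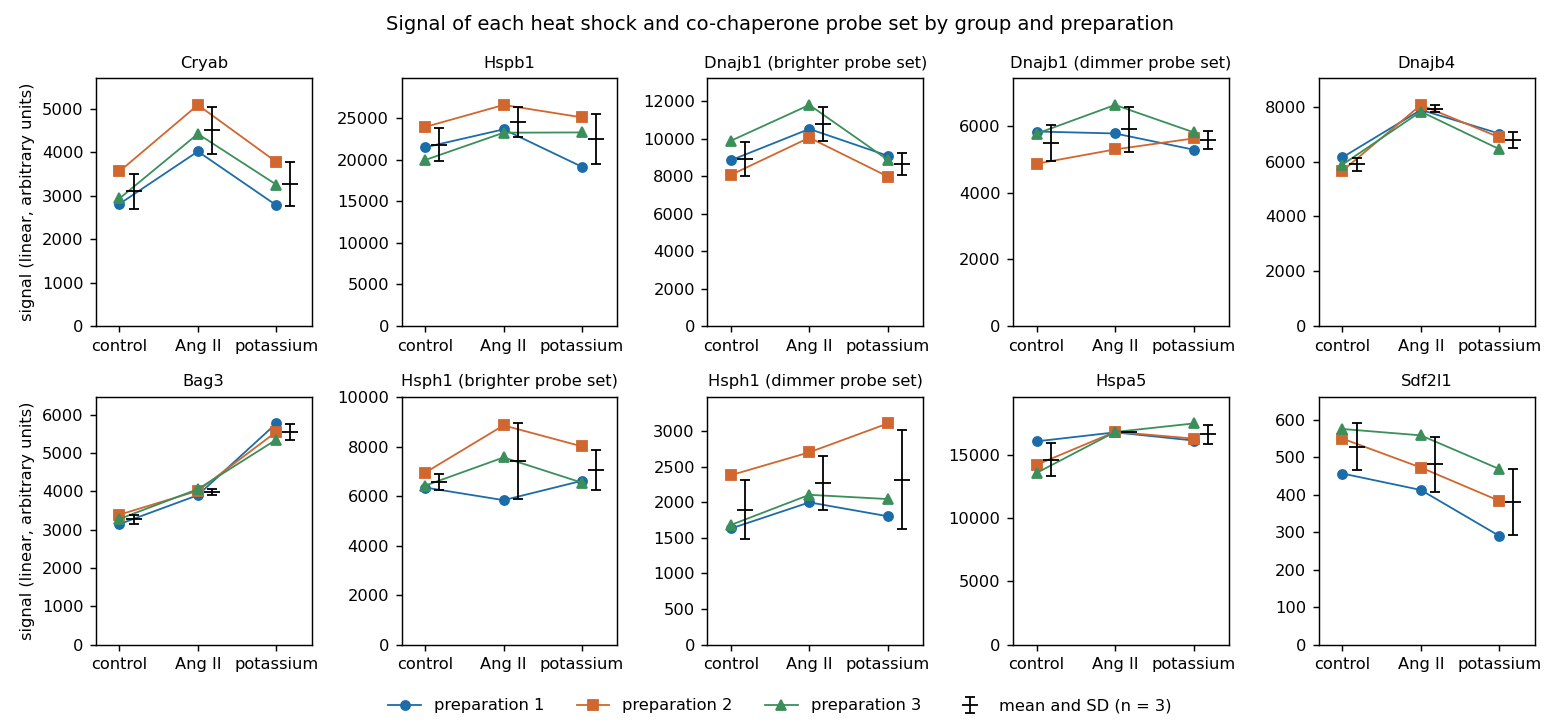
Linear signal (vertical axes, arbitrary units, from 0) of the 10 probe sets in the control, Ang II and potassium tubes, with a line joining the 3 tubes of each preparation and the mean and SD of 3 arrays beside the points. Cryab and Dnajb4 are highest with Ang II in every preparation, and Bag3 is highest with potassium in every preparation.

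Cryab, alpha B-crystallin, stood at 2813, 3562 and 2938 in control preparations 1 to 3. The signals were 4022, 5093 and 4426 with Ang II, and 2783, 3781 and 3258 with potassium. All Ang II arrays were above all control and potassium arrays, whereas control and potassium arrays overlapped, and preparation 2 was the highest in each group. The mean rose from 3105 ± 401 (SD, n = 3) to 4513 ± 541 with Ang II, a difference of 0.54 ± 0.07 (SE, 95% interval 0.39 to 0.68, adjusted p = 0.00031), with 0.51, 0.51 and 0.59 in the 3 preparations. Potassium gave 3274 ± 499, a difference from control of 0.07 ± 0.07 (interval -0.07 to 0.22, adjusted p = 0.62). Cryab was higher with Ang II than with potassium by 0.47 ± 0.07 (interval 0.32 to 0.61, adjusted p = 0.00061). Less RNA per cell and fewer cells of a type cannot be told apart in such bulk samples. The calls for Cryab held in each fit that left out a preparation or an array, among them that without control replicate 2 (0.54, adjusted p = 0.0025). They were lost when the preparations were not blocked or limma's intensity trend was left out, with adjusted p up to 0.11 against control and 0.082 against potassium.

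Hspb1, the small heat shock protein Hsp27, gave 21489, 23936 and 19964 in control preparations 1 to 3, 23649, 26581 and 23242 with Ang II, and 19140.1, 25087 and 23279 with potassium. The 3 groups overlapped, and preparation 2 was again the highest in each. Hspb1 differed from control by 0.17 ± 0.07 with Ang II (interval 0.02 to 0.32, adjusted p = 0.27) and by 0.04 ± 0.07 with potassium (adjusted p = 0.81), so neither difference passed. Its promoter, printed above, has a pair of 2-unit heat shock elements. No promoter is printed for Cryab.

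Dnajb4, a J-domain protein that stimulates Hsp70, gave 6155, 5664 and 5890.2 in control preparations 1 to 3. It gave 7889, 8068 and 7826 with Ang II, and 7024, 6888 and 6455 with potassium. The 3 groups did not overlap, with control lowest, potassium between and Ang II highest. Dnajb4 rose with Ang II from 5903 ± 246 to 7928 ± 126 (SD, n = 3), by 0.43 ± 0.06 (interval 0.29 to 0.56, adjusted p = 0.0013), with 0.36, 0.51 and 0.41 in the 3 preparations. With potassium the mean was 6789 ± 297, and the difference of 0.20 ± 0.06 (interval 0.07 to 0.33, adjusted p = 0.081) did not pass the threshold. The difference of 0.22 ± 0.06 between Ang II and potassium (interval 0.09 to 0.36, adjusted p = 0.056) did not pass either, although it passed without control replicate 2, at an adjusted p of 0.032, and in 3 other settings, at 0.026 to 0.042. The call with Ang II held in each fit that left out a preparation or an array, among them that without control replicate 2 (0.38, adjusted p = 0.0092), and was lost without the intensity trend (adjusted p = 0.16).

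Dnajb1, also known as Hsp40, is the J-domain partner of Hsp70 that HSF1 induces in heat-shocked cells. Its brighter probe set gave 8858, 8077 and 9900.4 in control, 10530.2, 10064 and 11813 with Ang II, and 9098, 7989.8 and 8879.9 with potassium. Every Ang II array was above every control and potassium array, and control and potassium arrays overlapped. The mean rose with Ang II from 8945 ± 915 to 10802 ± 906 (SD, n = 3), by 0.27 ± 0.06 (interval 0.14 to 0.41, adjusted p = 0.033), and it stood at 8656 ± 587 with potassium, a difference from control of -0.04 ± 0.06 (interval -0.18 to 0.09, adjusted p = 0.76). Dnajb1 was higher with Ang II than with potassium by 0.32 ± 0.06 (interval 0.18 to 0.45, adjusted p = 0.0073).

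The dimmer Dnajb1 probe set gave 5834, 4869.9 and 5771 in control, 5776, 5298 and 6631 with Ang II, and 5290.3, 5627 and 5812 with potassium. Its groups overlapped in all 3 comparisons, with differences of 0.10 ± 0.07 for Ang II (interval -0.06 to 0.26, adjusted p = 0.59), 0.03 ± 0.07 for potassium (adjusted p = 0.9) and 0.08 ± 0.07 between the stimuli (adjusted p = 0.7). The call for Dnajb1 with Ang II thus rests on 1 of 2 probe sets. The call was also lost in 9 of 12 fits that left out a preparation or an array (adjusted p 0.053 to 0.21 there), including that without control replicate 2 (0.26, adjusted p = 0.1), and without the filter, the block or the trend, on the 6 arrays compared and under both other scalings (adjusted p 0.061 to 0.31). The difference between the stimuli was lost without preparation 1, preparation 3 or potassium replicate 3 (adjusted p 0.06 to 0.09), with scaling to a common median (adjusted p = 0.19), and without the block (0.095) or the trend (0.19). The Dnajb1 promoter has a 2-unit heat shock element at -11 to -4 and another after the start, 17 to 24 bases past the start base.

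Bag3 couples Hsp70 to small heat shock proteins and to the disposal of damaged proteins by autophagy. It gave 3146, 3391 and 3279 in control preparations 1 to 3. With Ang II the signals were 3900.1, 4014 and 4057, and with potassium 5773, 5554 and 5350.2. The groups did not overlap, with control lowest, Ang II between and potassium highest in each preparation. Bag3 rose with potassium from 3272 ± 122 to 5559 ± 211 (SD, n = 3), by 0.76 ± 0.07 (interval 0.62 to 0.91, 1.70-fold, adjusted p = 4e-06), with 0.87, 0.71 and 0.70 in the 3 preparations. With Ang II it rose to 3990.3 ± 81.0, by 0.29 ± 0.07 (interval 0.14 to 0.43, 1.22-fold, adjusted p = 0.039), with 0.31, 0.24 and 0.31 in the 3 preparations. Bag3 was lower with Ang II than with potassium, with a difference of -0.48 ± 0.07 (interval -0.62 to -0.33, adjusted p = 5e-04).

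The potassium call for Bag3 held in all 21 alternative settings, among them the fit without control replicate 2 (0.79, adjusted p = 4.4e-05). The call with Ang II was lost in all 9 fits that left out a preparation, a control array or an Ang II array and kept in the 3 that left out a potassium array, with adjusted p of 0.073 to 0.25 and differences of 0.25 to 0.31 where it was lost. It was also lost without the filter, the block or the trend, with quantile normalization and on the 6 arrays compared (adjusted p 0.061 to 0.29). The difference of Bag3 between the stimuli held in all 12 of these fits and was lost without the intensity trend (adjusted p = 0.082). The Bag3 promoter holds a 2-unit heat shock element and, nearer the start, a TGACG match on the opposite strand. Over the 6 differences from control within preparations, the other genes nearest to Bag3 by Euclidean distance were Zbtb38, a zinc finger protein, at 0.27, Fgfr2, a fibroblast growth factor receptor, at 0.32, and Msx1, a homeobox factor, at 0.36. Their differences with potassium were 0.71, 0.71 and 0.61, and with Ang II 0.30, 0.24 and 0.17.

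**Figure D3:**
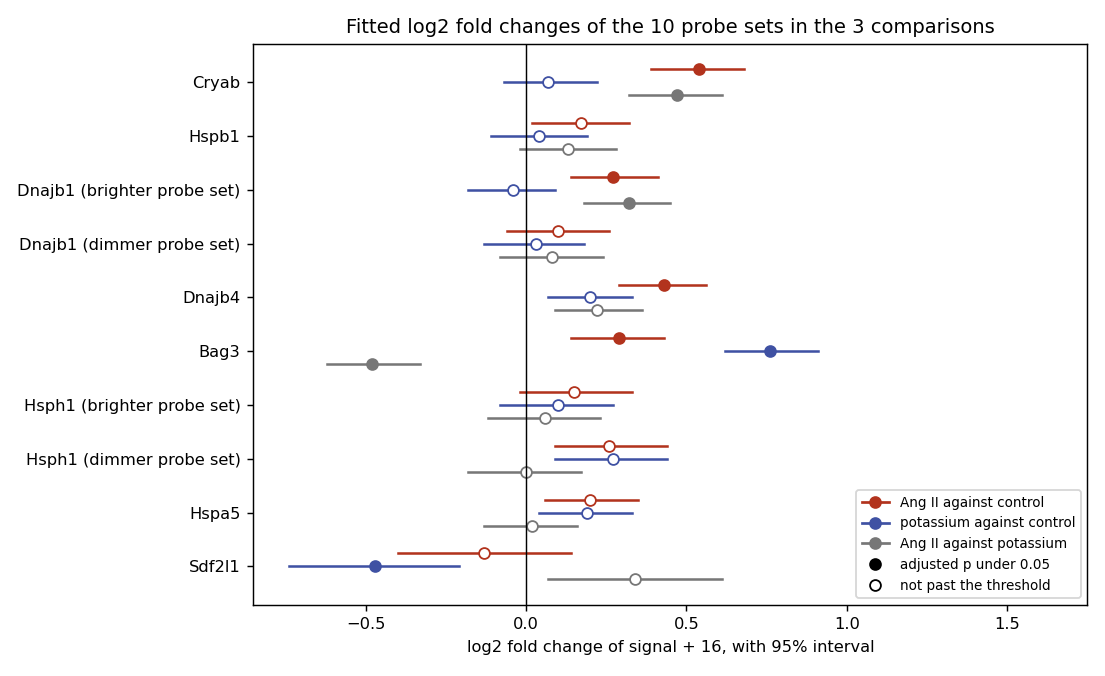
Fitted log2 fold changes of signal + 16 with 95% intervals (horizontal axis) for the 10 probe sets of the 8 genes (rows) in the 3 comparisons. Filled points have an adjusted p under 0.05. Cryab and Dnajb1 (brighter probe set) are filled for Ang II against control and against potassium, Dnajb4 is filled for Ang II against control, Bag3 is filled in all 3 comparisons, and Sdf2l1 is filled for potassium against control, at -0.47.

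Hsph1, the Hsp110 chaperone that acts as a nucleotide exchange factor of Hsp70, has the 3-unit heat shock element printed above. Its brighter probe set gave 6347, 6949.6 and 6423 in control, 5836, 8859.8 and 7564 with Ang II, and 6619.6, 8009.6 and 6542 with potassium. Its dimmer probe set gave 1632, 2382 and 1682 in control, 1999.6, 2704 and 2106 with Ang II, and 1804, 3109.5 and 2046 with potassium. On both probe sets the groups overlapped and preparation 2 was the highest in each group. For Hsph1 the differences with Ang II were 0.15 ± 0.08 (interval -0.02 to 0.33, adjusted p = 0.43) and 0.26 ± 0.08 (interval 0.09 to 0.44, adjusted p = 0.13). With potassium they were 0.10 ± 0.08 (adjusted p = 0.59) and 0.27 ± 0.08 (interval 0.09 to 0.44, adjusted p = 0.075). None passed the threshold.

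Hspa5, also called BiP or Grp78, is the Hsp70 of the endoplasmic reticulum and the usual marker of the unfolded protein response. It gave 16069, 14217 and 13576 in control, 16781, 16821 and 16812 with Ang II, and 16136, 16286 and 17484 with potassium. Every stimulated array was above every control array, and control preparation 1 was close to the stimulated arrays. The differences of Hspa5 from control, 0.20 ± 0.07 with Ang II (interval 0.06 to 0.35, adjusted p = 0.15) and 0.19 ± 0.07 with potassium (interval 0.04 to 0.33, adjusted p = 0.13), did not pass the threshold. Ang II and potassium differed by 0.02 ± 0.07 (interval -0.13 to 0.16, adjusted p = 0.95).

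Sdf2l1 is a subunit of a complex of endoplasmic reticulum chaperones and a target of the unfolded protein response. It gave 457, 550.3 and 576 in control, 413, 473 and 559 with Ang II, and 290.3, 384 and 469 with potassium. Potassium was lowest within each preparation and preparation 3 highest within each group, but the control and potassium groups overlapped. Sdf2l1 fell with potassium from 528 ± 62.8 to 381 ± 89.3 (SD, n = 3), a difference of -0.47 ± 0.12 (interval -0.74 to -0.21, 0.72-fold, adjusted p = 0.039), with -0.63, -0.50 and -0.29 in the 3 preparations. The call was lost in 11 of 12 fits that left out a preparation or an array (adjusted p 0.057 to 0.27), including that without control replicate 2 (-0.44, adjusted p = 0.13), and without the filter, the block or the trend, on the 6 arrays compared and under both other scalings (adjusted p 0.056 to 0.23). With Ang II the mean was 482 ± 73.1, a difference from control of -0.13 ± 0.12 (interval -0.40 to 0.14, adjusted p = 0.7), and the 0.34 ± 0.12 between Ang II and potassium did not pass (interval 0.07 to 0.61, adjusted p = 0.17).

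Across the 10 probe sets, every Ang II array was above every control array on 5, and every potassium array was above every control array on 3. Ang II arrays were all above potassium arrays on 3 probe sets and all below on 1, that of Bag3. Dnajb1 and Hsph1 each have a brighter and a dimmer probe set among the 10. The share of all tested probe sets with such a separation was not computed, so these counts are descriptions only. Preparation 2 was the highest in all 3 groups on 4 probe sets, those of Hspb1, Cryab and Hsph1. Preparation 3 was the highest in all 3 groups on 1, that of Sdf2l1. The share over all tested probe sets was not computed for these counts either, so they too are descriptions only. The preparation 2 array also had the highest median signal within each group, at 172.9 in control, 143.6 in Ang II and 141.1 in potassium. The trimmed mean was 500.0 on every array. Among the control arrays, that of preparation 2 was the lowest for Dnajb4 (5664) and for both Dnajb1 probe sets (8077 and 4869.9). It was the highest for Bag3 (3391). Whether the level of the 8 genes varied between cell preparations was not tested.

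Other genes of the same pathways were taken from 9 lists with 107 genes, of which 98 were tested, 90 of them beyond the 8 genes above. With Ang II, 2 of the 90 rose and none fell in limma, 2.22% higher beside 1.66% of all tested probe sets. At an unadjusted p under 0.05, 9 of the 90 were higher and 2 lower, beside 7.22% and 7.24% of all. With potassium 4 rose and 4 fell, 4.44% each way beside 2.78% and 2.58% of all tested probe sets. At an unadjusted p under 0.05, 10 of the 90 were higher and 7 lower with potassium, beside 8.77% and 10% of all. Between the stimuli 5 were higher with Ang II and 2 lower, 5.56% and 2.22% beside 3.09% and 1.7%. Unadjusted, 10 were higher and 6 lower there, beside 8.51% and 7.69% of all. Over the 98 genes the median differences were 0.01, 0.00 and 0.01, beside -0.03, -0.02 and -0.01 over all tested probe sets. The single lists held 3 to 26 tested genes. At shares of this size over all probe sets, a list without a call is not read as a lack of response.

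Among 5 further small heat shock protein genes, Hspb8, the partner of Bag3 in selective autophagy, rose with Ang II from a mean signal of 2478 to 3303, by 0.42 ± 0.08 (adjusted p = 0.01). Its mean was 2653 with potassium, and Ang II was higher than potassium by 0.31 ± 0.08 (adjusted p = 0.04). A dimmer Hspb8 probe set was not called with Ang II (0.27 ± 0.13, adjusted p = 0.37). Over all tested probe sets, 1.66% were called higher and 0.532% lower with Ang II, and 2.78% and 2.58% with potassium. Of 15 further J-domain genes none was called with Ang II in limma (1 at an unadjusted p under 0.05) and 1 with potassium. That gene, Dnaja4, rose from 1536 to 2636, by 0.77 ± 0.09 (adjusted p = 5.1e-05), and differed from control by 0.11 ± 0.09 with Ang II (adjusted p = 0.6). Its difference between the stimuli was -0.66 ± 0.09 (adjusted p = 0.00025), the same direction as that of Bag3, while its dimmer probe set gave 0.55 ± 0.20 with potassium (adjusted p = 0.15). The Dnaja1 probe sets disagreed in call with potassium, at -0.04 ± 0.06 (adjusted p = 0.77) on the brighter and -0.39 ± 0.07 (adjusted p = 0.0052) on the dimmer. On both, Dnaja1 was higher with Ang II than with potassium, by 0.22 ± 0.06 (adjusted p = 0.048) and 0.62 ± 0.07 (adjusted p = 0.00012).

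In the Hsp70 and Hsp110 list, 8 further genes were tested and none was called with Ang II in limma (2 at an unadjusted p under 0.05). Of all tested probe sets, 1.66% were called higher and 0.532% lower with Ang II. At an unadjusted p under 0.05 these shares were 7.22% and 7.24%. With potassium Hspa4, an Hsp110 protein, fell from 1546 to 1032 (-0.58 ± 0.10, adjusted p = 0.0024), while its relative Hspa4l rose from 1061 to 1446, by 0.44 ± 0.10 (adjusted p = 0.015). Hspa4 was higher with Ang II than with potassium by 0.50 ± 0.10 (adjusted p = 0.0079). Hspa2 rose from 691 to 930.2 (0.41 ± 0.11, adjusted p = 0.043), which its dimmer probe set did not show as a call (0.34 ± 0.16, adjusted p = 0.28). The stress-inducible Hspa1a, whose signal a near-identical gene copy could share, had a mean signal of 21711 in control. Its mean was 23495 with Ang II and 22123 with potassium. Hspa1a differed from control by 0.11 ± 0.06 with Ang II (adjusted p = 0.4) and 0.03 ± 0.06 with potassium (adjusted p = 0.87). None of the 3 Hsp90 genes tested was called in any comparison in limma, and 0 passed an unadjusted p under 0.05. With 3 genes, this is not read as a lack of response. In the BAG and nucleotide exchange list, Bag5 fell with potassium from 1818 to 1337 (-0.45 ± 0.09, adjusted p = 0.011).

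Sugt1, a co-chaperone of Hsp90, was the 1 gene of 14 in its list to be called, and it rose with Ang II by 0.43 ± 0.10 (adjusted p = 0.036) and with potassium by 0.51 ± 0.10 (adjusted p = 0.0066). Of 10 chaperonin genes, Cct6a fell with potassium on its brighter probe set (-0.27 ± 0.06, adjusted p = 0.021) and was not called on its dimmer (-0.04 ± 0.10, adjusted p = 0.89). Tcp1 was higher with Ang II than with potassium by 0.27 ± 0.06 (adjusted p = 0.022). Both encode subunits of the same folding ring. Hsf1, the heat shock factor itself, differed by -0.08 ± 0.12 with Ang II (adjusted p = 0.82) and 0.06 ± 0.12 with potassium (adjusted p = 0.85). None of the 4 heat shock factors and regulators tested was called in limma or passed an unadjusted p under 0.05. With 4 genes, this is not read as a lack of response. Of 26 endoplasmic reticulum genes none was called with Ang II in limma (3 higher and 1 lower at an unadjusted p under 0.05). Of all tested probe sets, 1.66% were called higher and 0.532% lower with Ang II. With potassium 2 were lower, Sdf2l1 and Herpud1, a factor in the degradation of endoplasmic reticulum proteins, which fell from 6753 to 5122 (-0.40 ± 0.07, adjusted p = 0.0023). Herpud1 was higher with Ang II than with potassium by 0.29 ± 0.07 (adjusted p = 0.022). Ddit3, the stress transcription factor CHOP, was lower with Ang II than with potassium (-0.29 ± 0.08, adjusted p = 0.04).

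Over the 12 fits that left out a preparation or an array, the calls of Dnaja4 with potassium and between the stimuli, and those of Hspa4 and Herpud1 with potassium, were never lost. Without limma's intensity trend Hspa4 with potassium (adjusted p = 0.083), Dnaja4 between the stimuli (0.053) and Herpud1 with potassium (0.11) lost their calls, as did Herpud1 without the block (0.059). The potassium calls of Sugt1, Bag5, Hspa4l, Cct6a and Hspa2 were lost in 3, 5, 7, 9 and 11 of the 12. With Ang II the calls of Hspb8 and Sugt1 were lost in 5 and 6. Between the stimuli the calls of Hspa4, Herpud1, Hspb8, Tcp1, Ddit3 and Dnaja1 were lost in 3, 7, 8, 9, 9 and 10 of the 12. With arrays scaled to a common median, which moved the median of all tested probe sets with potassium from -0.02 to 0.10, Bag5, Cct6a and Herpud1 were no longer called against control (adjusted p = 0.13, 0.5 and 0.18), and none of these calls changed direction under any of the 21 settings.

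**Figure D4:**
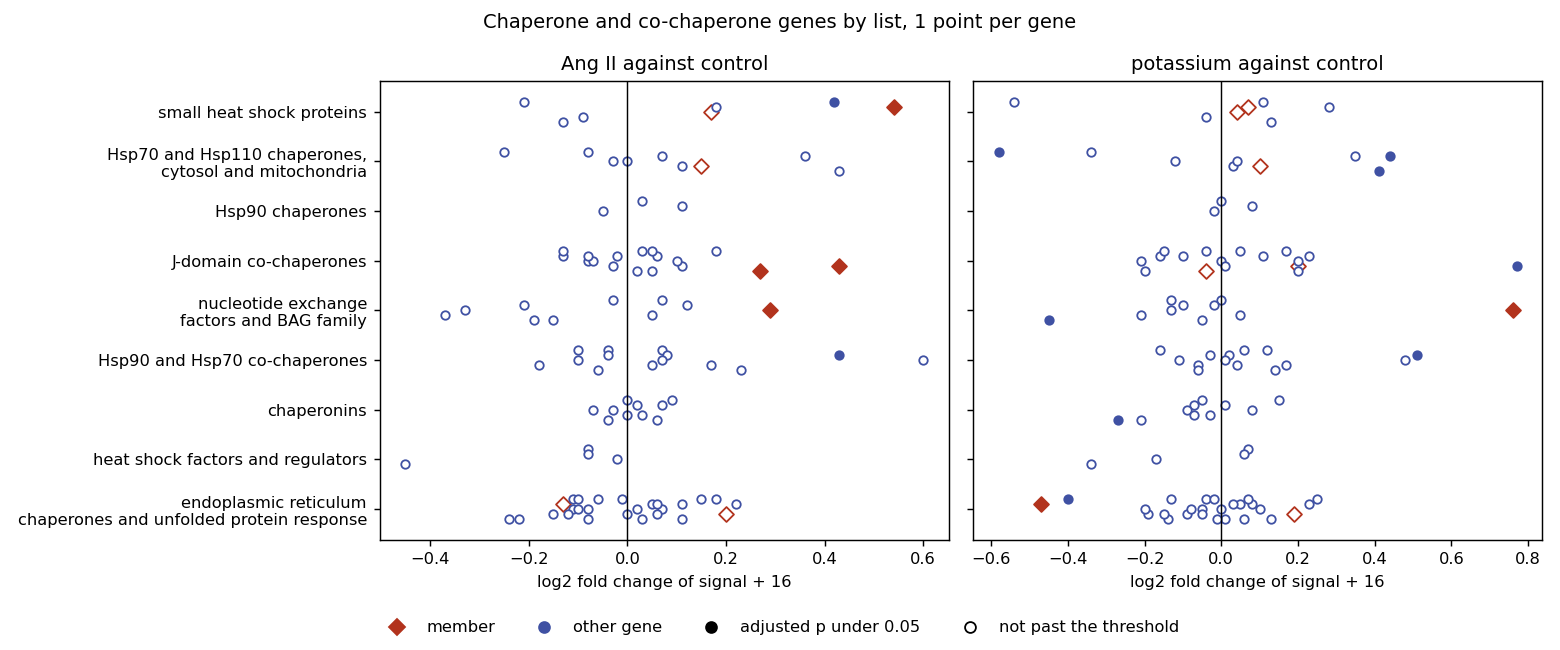
Log2 fold changes of signal + 16 (horizontal axes) for the tested genes of the 9 lists (rows), 1 point per gene at its brightest probe set, for Ang II against control (left) and potassium against control (right). Diamonds are the 8 genes followed here, circles other genes, and filled symbols have an adjusted p under 0.05. With Ang II the filled symbols all lie above 0, and with potassium 5 lie above and 5 below.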

How the data were processed

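The authors deposited 1 linear intensity per probe set and array, and the submitters' processing notes name GCOS, without a version. How background was removed and probes were summarised is not given in the sources used here. Groups and preparations came from the sample titles and the series' design text. Of 31099 probe sets, 57 controls were left out. Symbols came from the platform annotation, updated through RefSeq genes of GRCr8 (20826 probe sets with 1 symbol, 436 with several, 9780 with none). Values were taken as log2(signal + 16), which understates changes of dim probe sets. The 18625 probe sets with a mean log2 value above the 40th percentile, among them all 10 followed here, were fitted with limma 3.58.1 in R 4.3.3 (group, preparation as a block, intensity trend, 4 residual and 10.7 prior degrees of freedom) and adjusted by Benjamini-Hochberg over each comparison at 0.05. Arrays of a preparation deviated together (r = 0.09 to 0.27, against -0.21 to 0.05 between preparations). A gene in a list stands at its brightest probe set. All probe sets of the 8 genes are named, as are up to 3 other genes per list and comparison with the smallest p among those called, and the 3 nearest to Bag3. A few uncalled genes (Hspa1a, Hsf1) were named after their values were seen. The genes and lists were chosen with earlier results of these data known. The fit was tested on simulated data. The number of arrays limits the precision.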

Additional observations from a re-analysis of the deposited data

How the results depend on the processing

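Of 30 differences (10 probe sets in 3 comparisons), 15 kept their direction and side of the threshold in all 21 alternative settings. Of the 9 called, 1 was called in every setting, that of Bag3 with potassium, and 0 changed sign. Without the replicate block, that is without pairing by preparation, 6 of the 9 calls were lost, and without the intensity trend 8. The counts of genes called, of 8, were 4 with Ang II, 2 with potassium and 3 between the stimuli. They became 1, 1 and 1 without the block, and 0, 1 and 0 without the trend, beside 6 and 5 genes at an unadjusted p under 0.05 in limma's fit with the trend for the comparisons at 0. With no filter, with quantile normalization or with only the 6 arrays compared, the count with Ang II was 2 and that with potassium 1, and with scaling to a common median that with potassium was 1. Leaving out a preparation or an array gave 2 to 4 with Ang II and 1 to 2 with potassium.

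Over all probe sets, 409 were called with Ang II, 998 with potassium and 892 between the stimuli, against 197, 506 and 442 without the block and 38, 258 and 156 without the trend. Scaling to a common median gave 556 between the stimuli, and leaving out a preparation or an array 143 to 454, 432 to 977 and 275 to 1012. That scaling also turned the higher share of calls with Ang II from 75.8% (310 of 409) to 92.9% (431 of 464) and with potassium from 51.9% (518 of 998) to 80.3% (722 of 899), and moved the median of all tested probe sets from -0.03 to 0.09 and from -0.02 to 0.10. The cause was not tested.

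Only uncalled differences changed sign. Dnajb1 with potassium stood at -0.01 on the dimmer probe set with quantile normalization and at 0.08 on the brighter with scaling to a common median. Leaving out a preparation or an array gave Dnajb1 with potassium -0.07 to 0.11 on the dimmer and -0.09 to 0.01 on the brighter probe set, and Hspb1 with potassium -0.05 to 0.14. Between the stimuli it gave Hsph1 -0.08 to 0.09 on the dimmer probe set and -0.02 to 0.19 on the brighter, and Hspa5 -0.04 to 0.08.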
